A study of Mus musculus with 3 samples.

Results

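The cytosolic ribosomal protein genes, which encode the protein components of the cytoplasmic ribosome, were followed in blood cells of C57BL/6J mice. Members were the genes whose symbol has the Rpl or Rps form, together with Rpsa, Rplp0, Rplp1 and Rplp2, with at least 20 UMIs (unique molecular identifiers, each marking 1 captured RNA molecule) over all deposited barcodes. The symbol rule matched 83 genes, of which Rpl10l had no UMI, so 82 members remained of 31053 genes: 50 of the large (60S) and 32 of the small (40S) subunit. They held 32248331 UMIs.

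Each of the 3 libraries stood for 1 group at 12 h. The control group was labelled Sham (a sham procedure). The second group had CMC and CLP, and the third had HDCA and CLP. The abbreviations are read here as a puncture of the ligated caecum that leads to sepsis (CLP), the bile acid hyodeoxycholic acid (HDCA) and the vehicle carboxymethylcellulose (CMC). Since Sham names no CMC, CLP against Sham can differ in both CMC and surgery. No source used here says how many mice gave blood for a library. The cells are called mononuclear although the libraries contained neutrophils, which are not. With 1 library per group no test between groups was possible, all intervals are 95% intervals for counting error only, and the effect of a treatment and of its library cannot be told apart.

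Ribosomes hold a fixed set of these proteins, and their genes are among the most highly transcribed in proliferating and resting lymphocytes. Their messages carry a terminal oligopyrimidine (TOP) start, a C followed by an unbroken run of pyrimidines, through which LARP1 and the kinase complex mTORC1 control their translation. Circulating neutrophils are short-lived, non-dividing cells that make most of their granule proteins in the bone marrow, whereas T and B cells in blood are long-lived and can re-enter division. Values here are message levels and say nothing of ribosome number or of translation.

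The annotated starts of 9 members named below are shown because that start is what these genes are known to share. Each line gives 20 bases before the annotated start and the first 10 bases of the transcript on the gene's strand, from RefSeq (GRCm38.p6). Capitals mark the pyrimidine run where the start itself is a C followed by at least 4 pyrimidines. The first 3 genes were lower in CLP than in Sham in all lineages (Rpl38 only when neutrophils that met a second lineage rule are kept), the next 3 were higher, and the last 3 stood apart between cell types.
Rps27, chr3:90213639-90213668, minus strand: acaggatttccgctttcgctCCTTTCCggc
Rps21, chr2:180257359-180257388, plus strand: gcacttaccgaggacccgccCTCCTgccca
Rpl38, chr11:114668560-114668589, plus strand: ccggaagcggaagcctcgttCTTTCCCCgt
Rps6, chr4:86857358-86857387, minus strand: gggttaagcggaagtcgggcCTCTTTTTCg
Rps18, chr17:33955656-33955685, minus strand: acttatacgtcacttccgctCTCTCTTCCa
Rpl14, chr9:120571497-120571526, plus strand: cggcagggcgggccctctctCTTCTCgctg
Rps9, chr7:3704021-3704050, plus strand: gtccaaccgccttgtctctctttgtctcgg
Rps27l, chr9:66946066-66946095, plus strand: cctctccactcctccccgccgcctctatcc
Rpl12, chr2:32961692-32961721, plus strand: gcgtgggcggagcaggatccgtcttttcgg

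Of the 62 members found in the start table, 13 (20.97%) had such a run exactly at the annotated start, against 813 of 27025 genes of the table (3.01%). With the C allowed within 10 bases of the annotated start the counts were 38 members (61.3%) and 9297 genes (34.4%). The run stood at the annotated start of 3 of the 8 matched members that were lower in CLP in all lineages and of 4 of the 13 that were higher. The first 3 and the next 3 members printed all carry it. Rps27l, printed among the last 3, was also higher in CLP in all lineages and does not carry it. The printed members do not stand for their groups. Rps21 and Rps27l have 2 starts each in the table, of which the first is printed. Annotated starts can lie a few bases from the base at which transcription begins, so a missing run says only that these letters are not at this position.

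Lineages were set per cell from markers that are not ribosomal. A neutrophil had at least 5% of its UMIs in S100a8 and S100a9, which encode the calprotectin subunits. Of the rest, a B cell had at least 3 UMIs of Cd79a, Cd79b and Ms4a1, a T cell at least 2 of Cd3d, Cd3e, Cd3g and Trac, an NK cell at least 2 of Ncr1, Klrb1c and Klra8, and a monocyte at least 3 of Csf1r, Ms4a6c and F13a1. The Sham library had 237 neutrophils, the CLP library 4502 and the HDCA+CLP library 8224. B cells numbered 2639, 286 and 278 in the same order, T cells 2983, 3025 and 1387, NK cells 264, 982 and 494, and monocytes 286, 720 and 283. Other markers of each lineage (Csf3r, Cxcr2, Retnlg and Ly6g for neutrophils, for example) were highest in their own lineage in all 3 libraries, except Ccr2 and Cx3cr1, which were higher in NK cells than in monocytes in HDCA+CLP, as was Cx3cr1 in CLP. Between libraries, 17 to 34 cell barcodes were shared by a pair, and none by all 3.

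Ribosomal protein messages made up about 40% of the UMIs of a T cell and under 5% of those of a neutrophil, in each of the 3 libraries. In T cells the members held 41.30% of all UMIs in Sham (exact Clopper-Pearson interval 41.28 to 41.32), 40.65% in CLP (40.63 to 40.67) and 39.88% in HDCA+CLP (39.84 to 39.91). In B cells they held 31.52% (31.49 to 31.54), 33.64% (33.56 to 33.71) and 34.68% (34.58 to 34.77). The shares in NK cells were 22.53% (22.45 to 22.60), 26.63% (26.59 to 26.66) and 25.61% (25.56 to 25.66). Monocytes had 20.52% (20.48 to 20.57), 19.09% (19.07 to 19.12) and 17.92% (17.89 to 17.96). Neutrophils had 4.10% (4.06 to 4.13), 3.593% (3.587 to 3.599) and 3.431% (3.426 to 3.435). The order was T cells, B cells, NK cells, monocytes, neutrophils in every library, and stayed so under each of the 6 other settings for cells, lineages and denominator. No 2 neighbours in that order came closer than NK cells and monocytes in Sham, whose counting intervals did not meet. The large subunit genes gave 49.4% to 55.3% of member UMIs in the 5 lineages.

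**Figure D1:**
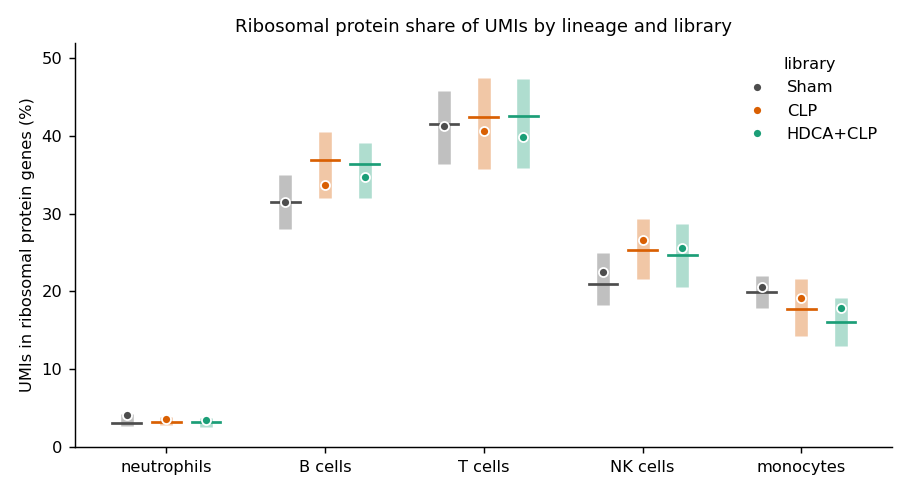
Share of UMIs in ribosomal protein genes (vertical axis, %) for the 5 lineages in each library. Dots are the share of the summed UMIs, lines the median cell and bars the middle 50% of cells; T cells lie near 40% and neutrophils under 5% in all 3 libraries.

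Some cells met the rule of more than 1 lineage, and in neutrophils they set the direction between Sham and CLP. They were 13 of the 237 Sham neutrophils, and they held 32.2% of the member UMIs there; in CLP they were 73 (6.36% of member UMIs) and in HDCA+CLP 121 (4.92%). In Sham neutrophils the B cell markers of the rule were at 43.1 CPM with these cells and at 13.1 without, and the monocyte markers at 192 and 64.5. Without them the neutrophil share was 3.13% for Sham (3.10 to 3.16), 3.44% for CLP and 3.32% for HDCA+CLP, so the order of Sham and CLP turned round. In CLP B cells 13 of 286 cells were of this kind, and the monocyte markers were at 416 CPM with them and 12.6 without. Values without these cells are called single-lineage values.

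The T cell share was 10.1 times that of neutrophils for Sham, 11.3 times for CLP and 11.6 times for HDCA+CLP. The single-lineage folds were 13.2, 12.1 and 12.2, with Sham the widest. Neutrophils spend much of their RNA on S100a8 and S100a9, which held 26.9%, 37.8% and 36.3% of their UMIs. With these 2 genes taken out of the total, the neutrophil share was 5.60%, 5.78% and 5.39%, still the lowest of the 5 lineages. The gap was also present in molecules per cell: the median neutrophil had 145, 263 and 247 UMIs of the members, and the median T cell 2721, 1992 and 1764. Among the neutrophils 5, 66 and 95 of the respective libraries had 10% or more of their UMIs in the members. RNA set free from lysed cells can reach any droplet. In neutrophils the T cell markers of the lineage rule were at 0.4069%, 0.5003% and 0.3396% of their T cell level. The B cell markers were at 0.6651%, 0.0580% and 0.0337% of their B cell level. The neutrophil ribosomal protein share was 9.92%, 8.84% and 8.60% of the T cell share. The part of free RNA in the neutrophil share was not tested.

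Neutrophils also had another mix of the members. Rps9 (ENSMUSG00000006333), a 40S protein known for its part in decoding accuracy, was the highest member in neutrophils of all 3 libraries. Its level was 2832 CPM (UMIs per 1000000 UMIs of the lineage) for Sham, 2413 for CLP and 2691 for HDCA+CLP. In T cells Rps9 was at 4937, 5627 and 5874 CPM, and in NK cells at 2567, 3534 and 3520. Of all member UMIs Rps9 took 6.91%, 6.72% and 7.84% in neutrophils. Rps27a, which encodes ubiquitin fused to a 40S protein, came next with 1934, 1559 and 1503 CPM, against 6326, 6485 and 6486 in T cells. Rps24, a 40S protein mutated in some patients with Diamond-Blackfan anaemia, was the highest member in T cells of all 3 libraries (13772, 12700 and 12423 CPM). The counts are of 3' ends, 1 per captured molecule, and were not divided by length.

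A member's share of all member UMIs removes what all of them have in common. On that scale Rps9 was higher in neutrophils than in T cells, with log2 differences of 2.53, 2.28 and 2.41 from Sham to HDCA+CLP, and Rps27a by 1.62, 1.44 and 1.43. Rps25, a 40S protein used by some viral internal ribosome entry sites, was higher by 1.13, 0.99 and 0.99. The minor genes Rpl7l1 (2.52, 3.51 and 3.33) and Rps27l (1.98, 2.46 and 1.88) were also on this side, from low levels. At the other end was Rpl12, a 60S protein at the base of the ribosomal stalk, at 164, 132 and 118 CPM in neutrophils against 7374, 7448 and 7181 in T cells, a difference in share of -2.15, -2.32 and -2.39. Rps18 (-1.32, -1.26 and -1.41), Rpl10a (-1.35, -1.39 and -1.49) and Rpl3 (-1.25, -1.37 and -1.53) were low in the same way. Single-lineage differences were wider in Sham, at -3.20 for Rpl12, -2.38 for Rps18, -3.09 for Rpl10a and -2.52 for Rpl3, from 33 to 94 UMIs each. In CLP and HDCA+CLP they were -2.49 and -2.54, -1.36 and -1.50, -1.53 and -1.58, and -1.50 and -1.63 in the same order of genes. As single-lineage values Rps9 was at 2775, 2403 and 2682 CPM and Rpl12 at 60.7, 114 and 104. Of 80 members with at least 100 UMIs, 27 had a higher and 41 a lower share in neutrophils than in T cells in all 3 libraries, and 12 were mixed. The ratio of T cell to neutrophil CPM ran from 1.74 to 44.9 over these members for Sham, 0.990 to 56.6 for CLP and 1.15 to 60.8 for HDCA+CLP. In single-lineage cells it ran to 122 for Sham, 67.8 for CLP and 71.0 for HDCA+CLP, so the widest gap passed from HDCA+CLP to Sham.

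**Figure D2:**
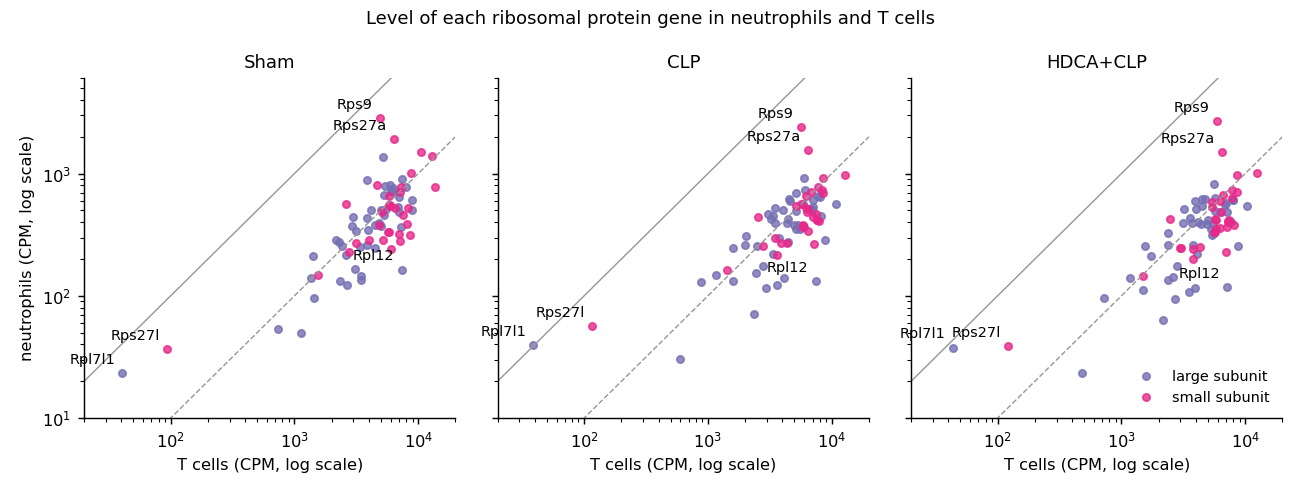
Level of each member in T cells (horizontal, CPM, log scale) and neutrophils (vertical, CPM, log scale) in each library; members under 10 CPM in either are not drawn. The solid line marks equal levels and the dashed line a neutrophil level 10 times lower; Rps9 and Rps27a lie well above the dashed line and Rpl12 below it in all 3 libraries.

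By the total share of UMIs in the members, monocytes stood between neutrophils and lymphocytes. Single members did not all follow that order. Rps27l, a copy of Rps27 known as a p53 target gene, was higher in monocytes than in T cells even in absolute level, at 305, 469 and 397 CPM against 94, 116 and 122, and its share of member UMIs was higher by 2.71, 3.11 and 2.85 (log2). Rpl10, a late-joining 60S protein, and Rpl7a were also on the monocyte side, by 1.27, 1.01 and 1.08 and by 0.98, 1.03 and 1.03. Rpl12 was again the lowest, by -1.47, -0.98 and -0.94, and it was low in NK cells too (-0.80, -0.65 and -0.67). In B cells the lowest against T cells included Rplp1 (-0.52, -0.42 and -0.40) and Rplp0 (-0.69, -0.29 and -0.40).

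The stalk genes Rplp0, Rplp1 and Rplp2 encode the flexible arm of the 60S subunit that recruits elongation factors, in which 1 copy of P0 carries dimers of P1 and P2. Rplp1 was at 1.29, 1.27 and 1.39 times the level of Rplp0 in T cells, and at 1.45, 1.16 and 1.40 times in B cells. In monocytes Rplp1 was below Rplp0 in all 3 libraries (0.735, 0.746 and 0.765 times). In neutrophils it was at 0.947, 0.561 and 0.534 times, and at 1.04, 0.545 and 0.513 times in single-lineage cells, so Sham neutrophils lay on either side of 1. Whole-transcript length does not enter a 3' count, but how well each 3' end is captured does, so the ratio is read only between cell types.

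Several ribosomal proteins have a second gene. Rps27l was 2.35%, 7.10% and 5.79% of the summed Rps27 and Rps27l UMIs in neutrophils, 7.30%, 17.6% and 17.1% in monocytes, and 0.879%, 1.36% and 1.54% in T cells. Rpl22l1, a copy of Rpl22 that can take its place in the ribosome, was 18.8%, 46.1% and 41.6% of the pair in neutrophils and 30.5%, 26.5% and 23.2% in T cells, so its share was higher in CLP than in Sham in neutrophils and lower in T cells. Neutrophil Rpl22l1 rested on 60 UMIs in Sham. It was at 49.8, 131 and 96.1 CPM, and at 19.6, 127 and 93.5 in single-lineage cells, where its share of the pair was 12.4%, 47.1% and 42.4%. Rpl3l, known as the heart and skeletal muscle form of Rpl3, was at 21.6, 7.66 and 10.2 CPM in neutrophils and 16.3, 4.29 and 5.52 CPM in monocytes. In B, T and NK cells it had 0 to 5 UMIs per library. Its nearest coding gene on the same strand in the GENCODE M21 annotation, Msrb1, lies 499 bases away and was at 3219, 1004 and 1286 CPM in neutrophils and 1316, 774 and 874 CPM in monocytes, with the same order of libraries. Whether reads of Msrb1 reach Rpl3l was not tested. Rpl39l, a copy of Rpl39 known from the testis, was at most at 5 CPM in any lineage and library.

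The share of UMIs in ribosomal protein genes was higher in CLP than in Sham in NK cells and B cells and nearly level in T cells. The log2 ratio of CLP to Sham was 0.241 (0.235 to 0.247) in NK cells, 0.094 (0.090 to 0.098) in B cells, -0.023 (-0.024 to -0.021) in T cells, -0.104 (-0.108 to -0.100) in monocytes and -0.189 (-0.202 to -0.176) in neutrophils. The single-lineage ratios were 0.25, 0.20, 0.01, -0.10 and 0.14, so the sign changed in neutrophils and T cells. The B cell ratio also turned to -0.05 when cells were held to 5% mitochondrial UMIs. The median log2 ratio of all genes measured was below 0 in each lineage, at -0.24 in NK cells, -0.10 in B cells, -0.05 in T cells, -0.15 in monocytes and -0.12 in neutrophils. Relative to it, the ratio of the members was 0.48, 0.19, 0.03, 0.05 and -0.07. NK cells were the only lineage of the 5 whose ratio was over 0.2 under each of the settings tried.

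Counted gene by gene, among members with at least 100 UMIs over both libraries, 68 of 80 were higher in CLP than in Sham in NK cells, where 34.7% of all genes measured were higher. In B cells 59 of 80 were higher (44 with at most 5% mitochondrial UMIs), against 43.8% of all genes. In T cells 39 of 80 were higher (background 45.8%), in monocytes 30 of 80 (41.4%) and in neutrophils 35 of 81 (44.9%). Lower were 12 members in NK cells (background 65.3%), 21 in B cells (56.2%), 41 in T cells (54.2%), 50 in monocytes (58.6%) and 46 in neutrophils (55.1%). The number of members higher in neutrophils was 59 of 81 in single-lineage cells and 3 with called doublets kept. A size of at least 1.5-fold was reached upward by 6 members in NK cells (background 9.68%; 32 members relative to the median of all genes), 4 in B cells (14.7%; 7 members relative to that median), none in T cells (12.3%), 4 in monocytes (17.3%) and 3 in neutrophils (23%). Downward it was reached by none in NK cells (27.2%) or B cells (23.9%), 2 in T cells (14.7%), 6 in monocytes (28.3%) and 11 in neutrophils (30.2%). In single-lineage neutrophils 30 were at least 1.5-fold higher and 5 at least 1.5-fold lower.

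A group of members was higher in CLP in each of the 5 lineages and another group was lower. Higher in all 5 were 15 of 80 (background 13.7%), among them Rpl4, Rpl7a, Rpl9, Rpl11, Rpl14, Rpl15, Rpl19, Rpl24, Rpl32, Rps3, Rps6, Rps18, Rps27l and Rpsa. Lower in all 5 were 9 of 80 (21.6%): Rpl13a, Rpl22, Rpl27, Rpl37a, Rpl38, Rps21, Rps27, Rps28 and Rps29. The count of the higher group was 24 in single-lineage cells and 2 with called doublets kept, and that of the lower group 5 and 9. The 5 were Rpl13a, Rpl37a, Rps21, Rps27 and Rps29, while Rpl22, Rpl27, Rpl38 and Rps28 were higher in CLP in single-lineage neutrophils. The lower group was a smaller share of the members than of all genes, and the higher group a somewhat larger one.

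Rps6, the 40S protein that S6 kinases phosphorylate downstream of mTORC1, was higher in each lineage. Its levels in Sham, CLP and HDCA+CLP were 1458, 2503 and 2151 CPM in NK cells, 1772, 2715 and 2288 in B cells, 2758, 3513 and 3032 in T cells, 1428, 2184 and 1861 in monocytes, and 227, 295 and 247 in neutrophils. In each lineage CLP was highest and HDCA+CLP lay between CLP and Sham. The log2 ratio of CLP to Sham was 0.78 (0.71 to 0.85) in NK cells, 0.61 (0.57 to 0.66) in monocytes and 0.35 (0.33 to 0.37) in T cells. Rps2, a 40S protein near the messenger entry channel, was at 2112 and 3678 CPM in NK cells of Sham and CLP (0.80, 0.74 to 0.86) and at 3008 and 4857 in B cells (0.69, 0.65 to 0.73). Rpl14 was at 1760 and 2948 CPM in B cells (0.74, 0.70 to 0.79) and at 1107 and 1665 in monocytes (0.59, 0.54 to 0.64). Rplp0 was at 2516 and 4113 CPM in NK cells (0.71, 0.66 to 0.76).

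Rpl5 and Rpl11 can, with 5S RNA, bind and block the p53 ligase Mdm2. Rpl11 was higher in CLP in all lineages, for example at 2826 and 3876 CPM in NK cells and 376 and 492 in neutrophils. Rpl5 was at 1676 and 1903 CPM in NK cells and 1787 and 2088 in B cells, but at 3101 and 2973 in T cells. In neutrophils it was at 167 and 117 CPM, and at 103 and 107 in single-lineage cells, where the direction turned. Rps19, the gene most often mutated in Diamond-Blackfan anaemia, was at 2070 and 2845 CPM in NK cells and 7144 and 6484 in T cells. Rpsa, a 40S protein also known as the laminin receptor, was at 3355 and 4443 CPM in NK cells, 4846 and 5588 in B cells and 323 and 415 in neutrophils (150 and 383 in single-lineage neutrophils). Rps3, a 40S protein at the messenger entry site, was at 2946 and 4054 CPM in NK cells and 2453 and 2647 in monocytes.

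Over all cells Rps27l had its largest ratio in B cells, where the 3 libraries stood at 103, 268 and 115 CPM. The log2 ratio of CLP to Sham was 1.38 (1.21 to 1.54), and it was 0.83 as a single-lineage value, with 100, 179 and 105 CPM. Among single-lineage values the ratio was largest in neutrophils, at 0.995 (26.2 and 52.2 CPM), from 28 UMIs in Sham. In monocytes Rpl7l1, a copy of Rpl7, was at 58.9, 102 and 103 CPM (0.80, 0.57 to 1.03).

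The members lower in CLP were led by short 40S proteins. Rps29, a zinc-binding 40S protein, was at 12958, 8459 and 8626 CPM in T cells (Sham first), at 6845, 4072 and 4123 in monocytes, and at 5809, 4645 and 4635 in NK cells. The Sham library was highest in each of these lineages, and CLP and HDCA+CLP lay close together. The log2 ratio of CLP to Sham was -0.62 (-0.62 to -0.61) in T cells and -0.75 (-0.77 to -0.73) in monocytes. Rps27 was at 3869, 2192 and 1921 CPM in monocytes (-0.82, -0.85 to -0.79), 9819, 6936 and 7617 in B cells, and 1513, 735 and 629 in neutrophils (-1.04, and -0.97 as a single-lineage value). Rps28 was at 5717, 3596 and 3792 CPM in T cells (-0.67, -0.68 to -0.65). Rps21 was at 5581, 4155 and 4630 CPM in B cells, 3963, 2933 and 2744 in NK cells and 706, 379 and 351 in neutrophils. Rpl37, a short 60S protein, was at 1366, 620 and 614 CPM in neutrophils (-1.14, -1.21 to -1.07; -1.09 single-lineage).

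These low members had short coding sequences, which the rule had not used. The 28 members with a coding length under 400 nt gave 38.5% of member UMIs in Sham neutrophils, 38.2% in B cells, 37.6% in T cells, 37.2% in NK cells and 36.0% in monocytes. In CLP they gave 32.0%, 32.8%, 33.1%, 31.7% and 30.1%, and in HDCA+CLP 31.7%, 33.1%, 33.1%, 31.5% and 29.9%. The Sham library was thus highest in all 5 lineages, and CLP and HDCA+CLP differed by less than 1 point in each. The range of the 5 lineages in Sham (36.0% to 38.5%) did not overlap that in CLP (30.1% to 33.1%). The limit of 400 nt was set after the values were seen.

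The same is seen in the ratios. The median log2 ratio of CLP to Sham over short and long members was 0.08 and 0.37 in NK cells, -0.05 and 0.23 in B cells, -0.16 and 0.09 in T cells, -0.25 and -0.01 in monocytes and -0.41 and 0.01 in neutrophils. In single-lineage neutrophils the medians were 0.01 and 0.47. Short members were lower in 25 of 27 cases in T cells (background 54.2%), 23 of 27 in monocytes (58.6%) and 19 of 27 in neutrophils (55.1%). They were lower in 15 of 27 in B cells (56.2%) and 8 of 27 in NK cells (65.3%). Long members were lower in 16 of 53 in T cells, 27 of 53 in monocytes and 27 of 54 in neutrophils. In B and NK cells they were lower in 6 of 53 and 4 of 53. In single-lineage neutrophils 13 of 27 short and 9 of 54 long members were lower. Across members, Pearson's r between coding length and log2 ratio was 0.57 in NK cells, 0.49 in T cells, 0.49 in monocytes, 0.45 in B cells and 0.24 in neutrophils, over 80 or 81 genes that share their libraries. Of the 9 members lower in all lineages 7 were short, and of the 15 higher 1 was (Rps27l). Other genes with coding sequences under 400 nt had medians of 0.01 to 0.06 against -0.05 to -0.27 for other long genes, so short genes as a whole were not lower in CLP. From CLP to HDCA+CLP the relation was absent, with r between -0.13 and 0.05 and nearly equal medians. The Sham library and the sham procedure cannot be told apart here.

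**Figure D3:**
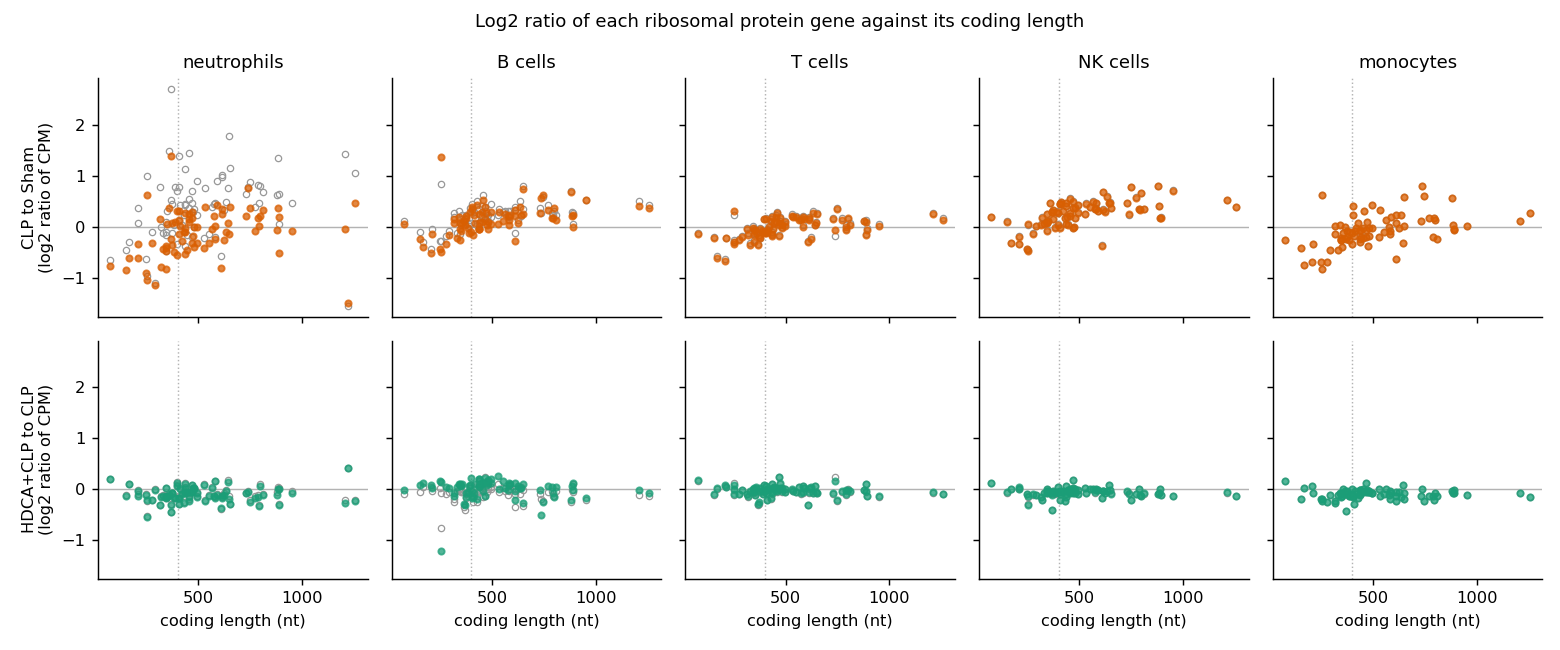
Log2 ratio of CPM (vertical) against coding length (horizontal, nt) for each member with at least 100 UMIs, by lineage, for CLP to Sham (top) and HDCA+CLP to CLP (bottom). Filled points are all cells, grey circles single-lineage cells and the dotted line 400 nt; in the top panels the median of members under 400 nt lies below that of longer ones in each lineage, with single members on either side (the long Rpl3l is the lowest point in neutrophils), and in the bottom panels the medians are nearly equal.

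The members differed little from CLP to HDCA+CLP. The log2 ratio of HDCA+CLP to CLP in the share was -0.067 (-0.070 to -0.064) in neutrophils, 0.044 (0.037 to 0.050) in B cells, -0.028 (-0.030 to -0.026) in T cells, -0.056 (-0.060 to -0.052) in NK cells and -0.091 (-0.095 to -0.087) in monocytes. It was below 0 in neutrophils, NK cells and monocytes under every setting tried. In T cells it was 0.016 with called doublets kept, and in B cells -0.050 as a single-lineage value. The median of all genes measured was 0.11 in T cells, and relative to it the T cell ratio was -0.14. Members were lower in 62 of 81 in neutrophils (background 58.1%), 50 of 80 in T cells (31.4%), 66 of 80 in NK cells (42%) and 73 of 80 in monocytes (41.9%). In B cells 31 of 80 were lower (50.2%). Higher were 19 members in neutrophils (background 41.9%), 49 in B cells (49.8%), 30 in T cells (68.6%), 14 in NK cells (58%) and 7 in monocytes (58.1%). The single member past 1.5-fold in any lineage was Rps27l, lower in B cells (background 12.4%). The backgrounds for at least 1.5-fold lower were 3.83% in neutrophils, 1.57% in T cells, 2.03% in NK cells and 2.52% in monocytes. For at least 1.5-fold higher they were 2.91% in neutrophils, 10.2% in B cells, 4.52% in T cells, 4.37% in NK cells and 3.03% in monocytes. This comparison and CLP to Sham share the CLP library, so the values are given side by side and no relation between them is drawn.

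Lower in all 5 lineages were 22 of 80 members (background 11.9%; 42 in single-lineage cells, 10 with at most 5% mitochondrial UMIs), and higher 3, Rpl10, Rpl23a and Rps12 (14.1%). Rpl35, a 60S protein at the exit of the nascent chain, was among the lowest in 4 lineages. It was at 1992, 1701 and 1258 CPM in monocytes (HDCA+CLP to CLP -0.44, -0.48 to -0.39), 1689, 2068 and 1560 in NK cells (-0.41, -0.46 to -0.36), 3146, 3246 and 2614 in B cells (-0.31, -0.38 to -0.24) and 3871, 3354 and 2797 in T cells (-0.26, -0.29 to -0.24). HDCA+CLP was the lowest library in each of these 4 lineages. Rpl41, the shortest member, was among the highest, at 2629, 2202 and 2463 CPM in monocytes and 3834, 3467 and 3909 in T cells. Rpl23a was at 2305, 2044 and 2393 CPM in T cells (0.23, 0.20 to 0.25). In neutrophils Rps27l was at 36.5, 56.2 and 38.6 CPM (-0.54, -0.62 to -0.46), and Rps9 at 2832, 2413 and 2691 (0.16, 0.15 to 0.17). In B cells Rps27l went from 268 CPM in CLP to 115 in HDCA+CLP (-1.22, -1.55 to -0.91; -0.76 single-lineage).

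Within neutrophils the median share differed with the granule genes Ngp, Camp, Ltf and Chil3, which are transcribed before release from the marrow, and the direction differed between libraries. The median cell with under 0.1% of UMIs in the 4 genes had 3.31% (194 cells), 2.34% (42) and 2.03% (174) in the order Sham, CLP, HDCA+CLP. With 1% or more it had 2.74% (20 cells), 3.32% (4140) and 3.27% (6896). With 0.1 to 1% the medians were 2.64% (23), 2.73% (320) and 2.48% (1154). The median was thus higher with more granule messages in CLP and HDCA+CLP and not in Sham. The share of summed UMIs, which a few cells with many member UMIs can set, ran otherwise over all cells. From the lowest to the highest range it was 5.21%, 4.23% and 3.56% for CLP, 3.41%, 7.39% and 3.93% for Sham, and 2.29%, 3.24% and 3.46% for HDCA+CLP. In single-lineage cells it was 2.24%, 2.76% and 3.47% for CLP, 3.39%, 2.38% and 2.47% for Sham, and 2.07%, 2.53% and 3.41% for HDCA+CLP. Single-lineage medians from the lowest to the highest range were 3.29%, 2.33% and 2.25% for Sham, 2.33%, 2.68% and 3.32% for CLP, and 2.03%, 2.47% and 3.27% for HDCA+CLP. Median UMIs per cell also differed between these ranges, at 3961 and 11651 in the lowest and highest range for Sham, 3595 and 8703 for CLP, and 3751 and 8335 for HDCA+CLP. Depth was not tested as a part of this. The ranges are parts of a score, not cell types: 161 CLP cells lay between 0.8% and 1.2%, and 21 between 0.08% and 0.12%.

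Ccl5 encodes a chemokine of effector and memory T cells. In CLP and HDCA+CLP, T cells with 2 or more Ccl5 UMIs had a lower ribosomal protein share than those with none. The median T cell without a Ccl5 UMI had 41.4%, 44.4% and 43.7%, Sham first. With 1 Ccl5 UMI it had 42.9% (101 cells), 44.1% (419) and 40.3% (69), in CLP close to the median without Ccl5. With 2 or more Ccl5 UMIs it had 44.1% (200 cells), 37.1% (959) and 36.1% (218). The single-lineage medians with 2 or more were 45.7%, 39.1% and 37.1%. The middle 50% of cells overlapped between those with no Ccl5 UMI and those with 2 or more in each library. Cells with 2 or more Ccl5 UMIs were also deeper, with median UMIs of 9516, 5831 and 6085 against 6543, 4404 and 3942, and free Ccl5 RNA can add to the count of a cell.

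**Figure D4:**
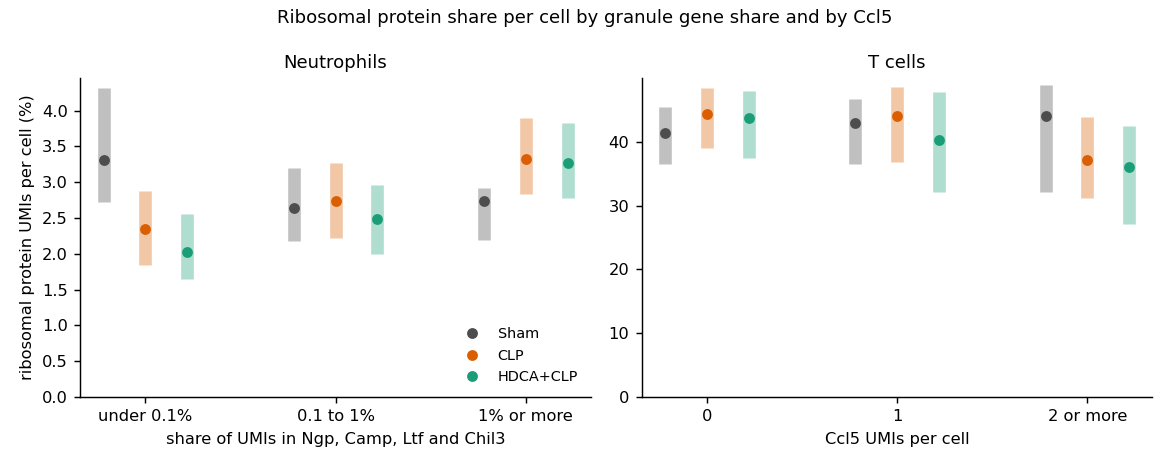
Share of UMIs in ribosomal protein genes per cell (vertical, %) for neutrophils by the share of their UMIs in Ngp, Camp, Ltf and Chil3 and for T cells by Ccl5 UMIs, in each library. Dots are medians and bars the middle 50% of cells; among neutrophils the medians of CLP and HDCA+CLP are higher toward the right and those of Sham are not, and T cells with 2 or more Ccl5 UMIs lie lower than those with none in CLP and HDCA+CLP and higher in Sham.

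The gap between T cells and neutrophils reached other genes of translation in unequal measure. The elongation factors and other TOP messages (17 genes, such as Eef1a1 and Tpt1) summed to 30024, 32403 and 30660 CPM in T cells and 4773, 4575 and 4385 in neutrophils, a fold of 6.29, 7.08 and 6.99 (7.39, 7.44 and 7.22 in single-lineage cells). Genes of ribosome biogenesis (25, such as the nucleolar Ncl and Fbl) had folds of 7.03, 7.95 and 8.58 (8.68, 8.32 and 8.97). Mitochondrial ribosomal protein genes (78) had folds of 1.80, 2.08 and 2.31. The 18 genes listed as regulators of ribosomal protein message translation, Myc and its partners among them, went the other way as a sum. Neutrophil sums were 2345, 1400 and 1534 CPM against 578, 630 and 650 in T cells. Mxd1, a Max partner that opposes Myc, alone gave 1412, 858 and 945 CPM of the neutrophil sums, against 27.3, 70.3 and 81.6 in T cells. The direction is thus that of a sum in which 1 gene weighs most, and single genes went either way. Larp1 was at 8.29, 12.5 and 11.6 CPM in neutrophils against 64.2, 67.0 and 78.5 in T cells. Eif4ebp1 was at 318, 170 and 209 against 13.5, 15.3 and 15.1. Of these sets the cytosolic members had the widest gap in each library. The 5 genes of cytosolic ribosome proteins or partners outside the symbol rule had a narrower gap as a sum. Their summed folds were 3.23, 4.93 and 4.57, below those of the elongation factor and biogenesis lists. Fau alone gave 3653, 2123 and 2232 CPM of their neutrophil sums of 4270, 2697 and 2662, against 7074, 6929 and 7344 in T cells. Rack1 was at 177, 153 and 143 CPM in neutrophils against 2836, 3095 and 2851 in T cells. The narrower gap is thus that of a sum in which Fau weighs most.

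Genes of ribosome biogenesis differed more between CLP and Sham than the ribosomal protein genes did, in B cells and monocytes. Their sum in B cells was 1898, 3802 and 2401 CPM, and in monocytes 1111, 2178 and 2109. In B cells 22 of 24 measured were higher in CLP, where 43.8% of all genes were, and 17 at least 1.5-fold (14.7% of all genes), with a median log2 ratio of 0.83. In monocytes 21 of 24 were higher (41.4%) and 19 at least 1.5-fold (17.3%), with a median of 1.05. The single-lineage counts in B cells were 23 of 24 and 14, with a median of 0.67. The median of all genes measured was -0.10 and -0.15 there, and that of the ribosomal protein genes 0.15 and -0.07. Ncl, a nucleolar RNA-binding protein, was at 531 and 1456 CPM in B cells (1.46), and Gar1, an H/ACA particle protein, at 12.3 and 54.9 in monocytes (2.16). In T cells 19 of 25 were lower (54.2% of all genes, median -0.18). In HDCA+CLP B cells all 17 measured were lower than in CLP (50.2% of all genes), 13 of them at least 1.5-fold (12.4%), with a median of -0.76. Single-lineage counts were 15 of 15 and 8. In NK cells 20 of 22 were lower in HDCA+CLP than in CLP (42%), 4 of them at least 1.5-fold (2.03%), with a median of -0.37. In monocytes 14 of 24 were lower (41.9%), in neutrophils 15 of 20 (58.1%) and in T cells 8 of 24 (31.4%). Plasma cell messages were also unlike between the B cell sums, not all in the same direction. Jchain was at 27.3, 338 and 446 CPM, Mzb1 at 353, 310 and 510, and Sdc1 at 4.41, 10.6 and 5.52. The B cell markers of the rule were at 6483, 2334 and 3169 CPM. The part of these messages in the biogenesis values was not tested.

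TOP messages outside the ribosome were higher in CLP than in Sham in 16 of 17 in B cells (43.8% of all genes, median 0.24), with the nucleolar chaperone Npm1 at 793 and 1616 CPM, in 14 of 17 in NK cells (34.7%, 0.32), 11 of 17 in T cells (45.8%, 0.05), 9 of 17 in monocytes (41.4%, 0.12) and 8 of 17 in neutrophils (44.9%, -0.11). In single-lineage neutrophils 10 of 17 were higher with a median of 0.19, so its sign turned. Mitochondrial ribosomal protein genes were higher in 49 of 69 in neutrophils (44.9% of all genes) with a median of 0.62 (52 of 68 and 1.08 in single-lineage cells), although their sum was lower, with 2256 CPM for Sham and 2064 for CLP. The highest of them, Mrpl33, was at 1047 and 479 CPM. Sham neutrophils had 1206007 UMIs in all against 38388584 in CLP, so the Sham level of most of these genes rests on few UMIs. Among regulators Mxd1 was at 27.3 and 70.3 CPM in T cells of Sham and CLP.

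**Figure D5:**
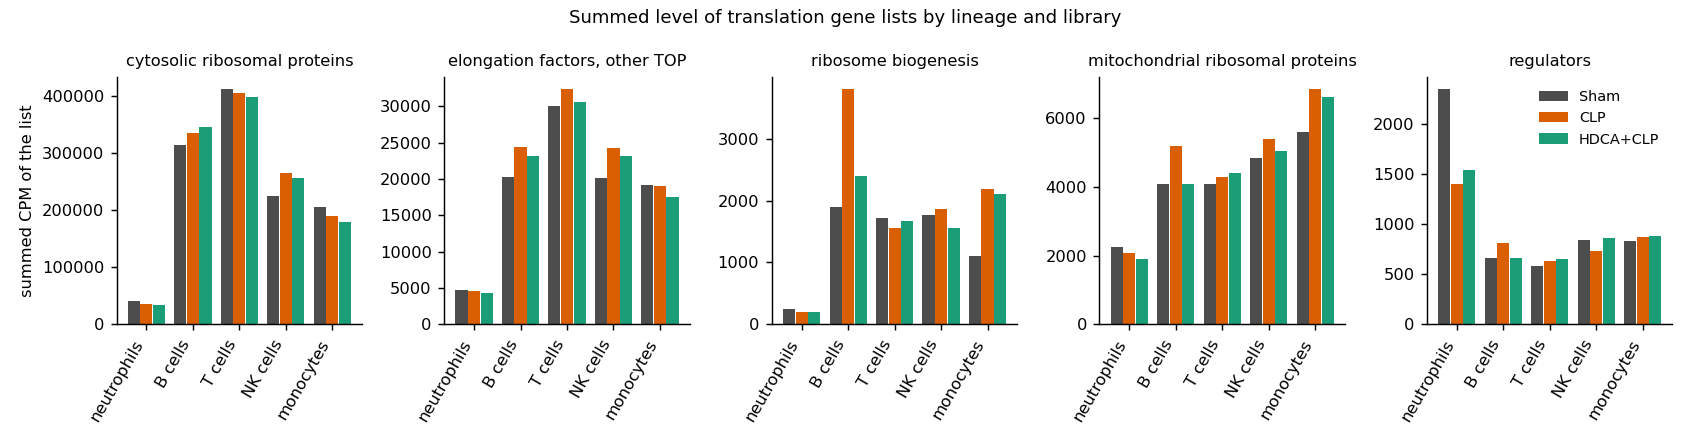
Summed CPM (vertical, separate scale for each panel, from 0) of the members and of 4 translation gene lists in the 5 lineages of each library. Neutrophils are lowest in the first 4 panels and highest in the last (regulators), and biogenesis genes are highest in CLP B cells. In the last panel Mxd1 alone gives 1412, 858 and 945 CPM of the neutrophil sums.

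The symbol rule left out 5 genes of cytosolic ribosome proteins or partners, among them Fau with 787862 UMIs, Rack1 with 224743, Rpl36al with 63647 and Rps27rt with 11904. Fau, ubiquitin-like protein fused to eS30, was at 3653, 2123 and 2232 CPM in neutrophils and 6144, 3850 and 3892 in monocytes.

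Ribosomal protein genes have many processed pseudogenes, so reads could be split between copies. The 9 features named as their pseudogenes held 17468 UMIs, 0.0542% of the members' UMIs. On the same strand Rpl13 overlaps Gm20388, Rpl13a Gm45713, Rpl19 Gm11629, Rpl24 Gm28037 and Rps10 RPS10-NUDT3 in GENCODE M21, so the levels of these 5 are uncertain. Rpl13a, which also serves in an interferon-dependent translational silencing complex, was at 24 to 733 CPM over all lineages and libraries.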

How the data were processed

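Droplet single-cell libraries of blood (10x Chromium 3' v3, per the labels' protocols) were analysed from the deposited raw UMI counts per gene and barcode, made by the authors with Cell Ranger 5.0.1 per the file headers. R 4.0.3, Seurat 4.0.6 and the mm39 build stand in the submitters' processing notes without a role. The Sham library had 7159 barcodes, CLP 11387 and HDCA+CLP 12205, with 42427093, 87031721 and 95178381 UMIs. Cells had at least 500 UMIs, 200 genes and at most 10% mitochondrial UMIs. Each library's cells were scored for doublets by their nearness to simulated ones (2 for each cell), and the top 0.8% per 1000 barcodes (395, 987 and 1174 cells) were left out, which left medians of 5208, 6484 and 7065 UMIs per cell. UMIs were summed per lineage and library and scaled to 1000000 (CPM). Shares have exact Clopper-Pearson intervals and ratios exact conditional binomial intervals (95%), which cover counting error only. A count of 0 was set against a floor of 3 counts in a ratio. Scripts were tested on simulated counts. Python 3.11.15 with NumPy 2.4.6 and SciPy 1.17.1 was used.

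The members and gene lists were chosen with earlier results of these data known. Members named in each lineage and comparison were the 3 highest and 3 lowest by the interval bound nearest to 0, plus the copies, stalk genes and a fixed set (Rpsa, Rps6, Rps19, Rpl5, Rpl11, Rpl13a, Rps3, Rps27a). The 2 highest and 2 lowest genes of the other lists were taken by the same bound. Chosen after values were seen were the 400 nt limit, neutrophils at 10% or more, T cells as the reference for member shares with 6 members on each side, the neighbour of Rpl3l, the starts printed and the naming of Rps24. Coding lengths and neighbours are from GENCODE M21 and starts from RefSeq GRCm38.p6, and no coordinates of the authors' build were used. Alternatives were other cell and lineage limits, kept doublets, single-lineage cells, another denominator, a mean over cells, added genes and centring. Rps4l is not analysed here, results on some genes are not reported here, and protein sequences were not used.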

Additional observations from a re-analysis of the deposited data

Results flagged for a closer look

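The ribosomal protein share differed in direction between lineages for the same pair of libraries. From Sham to CLP its log2 ratio was 0.241 in NK cells and 0.094 in B cells, and -0.023 in T cells, -0.104 in monocytes and -0.189 in neutrophils. From CLP to HDCA+CLP it was 0.044 in B cells, and -0.067 in neutrophils, -0.028 in T cells, -0.056 in NK cells and -0.091 in monocytes. The counting intervals of these values do not include 0. The differences between lineages were not tested, since each group is 1 library, and the sign changed under at least 1 other setting in neutrophils, T cells, B cells and monocytes from Sham to CLP and in T and B cells from CLP to HDCA+CLP.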

How the results depend on the processing

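No paired analysis was possible because each group had 1 library. The order of the 5 lineages by share was the same under each setting tried for it. Of 60 values of named members, 2 changed sign with called doublets kept (Rpl19 and Rpl11 in neutrophils, at -0.17 and -0.21) and 1 after centring (Rpl24 in T cells). None did in single-lineage cells. These members were picked as the highest and lowest in the same data, so few changes of sign could be seen among them. Member counts were not recomputed for the reduced denominator or the mean over cells. The cause of the differences was not tested. Sham neutrophils were 237 cells with 1206007 UMIs.

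Values below are log2 ratios of the share in the order neutrophils, B, T and NK cells and monocytes where that many are given. Single-lineage cells gave 0.136, 0.195, 0.0057 and 0.249 for CLP to Sham (neutrophils to NK cells) and -0.051, -0.050 and -0.041 for HDCA+CLP to CLP (neutrophils to T cells). Members higher were then 59 (neutrophils, CLP to Sham) and 23 (B cells, HDCA+CLP to CLP). Those of 1 direction in all lineages were 24 higher and 5 lower in CLP, and 42 lower in HDCA+CLP. With called doublets kept the ratios were -0.625, 0.104 and -0.062 for CLP to Sham (neutrophils to T cells) and -0.163, 0.026, 0.016 and -0.048 for HDCA+CLP to CLP (neutrophils to NK cells). Members higher were 3 and 5 in neutrophils in the 2 comparisons, 46 in T cells (HDCA+CLP to CLP) and 2 in all lineages (CLP to Sham). Members at least 1.5-fold lower in neutrophils (CLP to Sham) were 41 with doublets, 5 in single-lineage cells and 7 with the 10% limit, and those higher 1, 30 and 14, against 11 and 3.

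As a mean over cells the ratios were -0.049, 0.193, 0.021, 0.233 and -0.161 for CLP to Sham and -0.093, -0.0096, -0.0063, -0.040 and -0.128 for HDCA+CLP to CLP. Relative to the median of all genes they were -0.067, 0.192, 0.029, 0.480 and 0.050, and -0.016 (neutrophils), -0.137 (T cells), -0.115 (NK cells) and -0.141 (monocytes). Members higher were then 49 in monocytes (CLP to Sham) and 3, 4 and 4 in T cells, NK cells and monocytes (HDCA+CLP to CLP). Those of 1 direction in all lineages were 28 higher and 5 lower in CLP, and 1 higher in HDCA+CLP. After centring, members at least 1.5-fold higher in NK cells were 32 and in B cells 7, against 6 and 4. Those lower were 2 in monocytes and 1 in T cells, against 6 and 2. With the members of at least 400 nt the ratios were -0.045, 0.215, 0.078, 0.363 and 0.023, and -0.061 (neutrophils), 0.036 (B cells) and -0.087 (monocytes); this setting was chosen after seeing the data. With the 5 missed genes added they were -0.227 (neutrophils), 0.084 (B cells), 0.233 (NK cells) and -0.118 (monocytes), and -0.063 (neutrophils) and -0.031 (T cells). With the reduced denominator they were 0.021 (neutrophils), 0.089 (B cells) and 0.230 (NK cells), and -0.099 (neutrophils), 0.060 (B cells) and -0.031 (T cells).

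The neutrophil limit of 10% gave -0.014 for CLP to Sham, -0.046 for HDCA+CLP to CLP, -0.097 in monocytes (HDCA+CLP to CLP) and 24 members higher in all lineages in CLP. At most 5% mitochondrial UMIs gave -0.049 in B cells (CLP to Sham), 0.170 and -0.021 in B and T cells (HDCA+CLP to CLP) and 10 members lower in all lineages in HDCA+CLP, and 5 B cell members at least 1.5-fold lower in CLP against none. At least 2000 UMIs per cell gave 0.088 in B cells (CLP to Sham).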
